A study of Mus musculus with 32 samples.

Results

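Replication-dependent histone genes encode the linker histone H1 and the core histones H2A, H2B, H3 and H4. They are described here in RNA pulled down from 4 mouse organs with an antibody against m6A (N6-methyladenosine, a modified base of RNA). The members were all rows of the deposited m6A table whose gene symbol is H1f1 to H1f6 or starts with H2ac, H2bc, H3c or H4c and a digit, or has the older Hist form. This took 64 of 27179 genes, none of them under an older symbol: 6 H1, 17 H2A, 17 H2B, 12 H3 and 12 H4 genes. The rule uses gene names and no measured values.

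The study prepared methylated RNA immunoprecipitation libraries (MeRIP-Seq) from mouse brain, heart, kidney and liver. The groups were frozen brain, FFPE brain, frozen heart, FFPE heart, frozen kidney, FFPE kidney, frozen liver and FFPE liver, where frozen organs were flash frozen and FFPE organs were fixed in 10% formalin and embedded in paraffin. All groups shared the same shearing by ultrasound, the m6A antibody and a total RNA library kit with ribosomal RNA removal, and no group had a drug or an altered gene in the labels. Strain, age, sex, and whether frozen and FFPE organs came from the same animals, are not stated in the labels. The labels list 2 runs for each of the 8 m6A groups, but the table has 1 column for each, which may hold 1 run or both and is called a library here, so no group has replicates. Input RNA was not analysed here, so a level is the amount of a transcript in pulled-down RNA, and abundance and methylation cannot be told apart.

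Histone proteins are needed in bulk when DNA is copied, and most of these genes are transcribed mainly in S phase of the cell cycle. Their messages usually lack introns and a poly(A) tail and end in a stem-loop that is bound by SLBP (stem-loop binding protein) and trimmed by the U7 small nuclear ribonucleoprotein. Some members are also made as longer, polyadenylated transcripts in cells that no longer divide. Core histones form the octamer around which DNA is wrapped, while H1 binds the linker DNA between octamers. The library kit used total RNA, so messages without a poly(A) tail could be captured.

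The genes lie in clusters. In RefSeq's annotation of the mouse genome (GRCm38.p6, that is mm10), 54 members lay on chromosome 13 between bases 21715711 and 23934913, and 10 lay on chromosome 3 between bases 96219885 and 96270192. The 3 H1 promoters with the most counts are shown because H1 genes carried most of the histone counts. That of H2bc18 is shown because this gene was the tested member furthest above the other organs in brain. Each is the 150 bases before the annotated start of the gene, read on the gene's own strand from RefSeq (GRCm38.p6). Capitals mark matches to the CCAAT box (CCAAT), the TATA box (TATAAA), its variant TATATA, the H1 box (AAACACA) and the octamer (ATTTGCAT), each searched on both strands.
H1f2, chr13:23738657-23738806, plus strand: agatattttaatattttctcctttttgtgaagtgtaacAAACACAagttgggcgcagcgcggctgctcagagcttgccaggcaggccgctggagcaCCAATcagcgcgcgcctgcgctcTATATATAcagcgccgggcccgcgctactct
H1f4, chr13:23622559-23622708, minus strand: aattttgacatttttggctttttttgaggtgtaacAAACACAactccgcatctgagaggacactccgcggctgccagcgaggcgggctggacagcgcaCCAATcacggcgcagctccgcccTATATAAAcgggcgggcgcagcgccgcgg
H1f3, chr13:23554882-23555031, plus strand: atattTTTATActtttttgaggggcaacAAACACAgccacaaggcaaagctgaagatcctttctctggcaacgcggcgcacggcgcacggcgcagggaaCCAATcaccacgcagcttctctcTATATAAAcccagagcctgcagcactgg
H2bc18, chr3:96269550-96269699, plus strand: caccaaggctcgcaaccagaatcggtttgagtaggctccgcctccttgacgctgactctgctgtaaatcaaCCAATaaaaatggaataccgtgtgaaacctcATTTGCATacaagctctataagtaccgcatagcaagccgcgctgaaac

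The 3 H1 promoters each held an H1 box, a CCAAT box and TATATA in that order. Counted back from the base before the gene's start, the H1 box began at -112 in H1f2, -115 in H1f4 and -122 in H1f3. The CCAAT box began at -54, -52 and -51, and the TATATA match at -31, -29 and -28. TATATA and TATAAA overlap in H1f4 and H1f3, where both are read from the same run of capitals, and H1f2 had no TATAAA. The capitals at the start of the H1f3 sequence are TATAAA on the opposite strand, which the other pair lacked. H2bc18 had no H1 box and held a CCAAT box at -79 and the octamer at -48. Promoters were given for 59 members, and over the 250 bases before the start the H1 box was found in 5 of 6 H1 genes (83.3%) and in 7.20% of all 27025 promoters. The octamer was found in 7 of 15 H2B genes (46.7%) and 6 of 17 H2A genes (35.3%), against 1.81% of all promoters. The CCAAT box was found in 83.1% of the 59 members and 37.5% of all promoters, with every H1, H2A and H2B promoter and 3 of 11 H4 promoters among them. TATAAA was found in 47.5% of members and 14.3% of all promoters, and TATATA in 25.4% and 6.19%. These are matches of letters, not measured sites of binding.

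Per library, 9603050 to 21523379 gene counts were recovered, and 50.4 to 79.7% of them came from ribosomal RNA genes. Outside those genes, 3050241 to 8004550 counts remained. A gene with 3 counts has a level of log2 -3.29 in the deepest library, frozen brain, and -0.86 in the shallowest, FFPE liver. Each organ's libraries were rich in that organ's own marker transcripts. Frozen heart also held brain transcripts, with 5 neuron markers summing to 31.5 CPM (counts scaled to a common library size) against 3.70 in FFPE heart. The brain libraries differed in Ttr, a gene of the hepatocyte marker list, with 12435 counts in frozen and 427 in FFPE brain. The part of such differences in the histone values was not tested. Xist, the X-inactivation RNA, had 5 to 26 counts in frozen and 2693 to 6685 in FFPE libraries, and 4 Y-linked genes summed to 39.8 to 61.6 CPM in frozen and 23.0 to 25.6 in FFPE libraries. Differences between animals and between preservations therefore cannot be told apart.

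Histone messages were sparse. The 64 members summed to 13362 counts over the 8 libraries, and the median member had 36. Of the 512 values, 236 (46.1%) were under 3 counts. At least 3 counts in all 8 libraries were found for 15 members, 49 were under 3 counts in some library, and 7 were under 3 in all 8 (H1f6, H2ac1, H2ac23, H2ac24, H2bc1, H2bc22 and H2bc24). H2ac1 and H2bc24 were at 0 in all 8. A level above log2 0 in at least 2 libraries, the condition for testing, was reached by 17 members, which held 89.5% of the counts: 5 H1, 1 H2A, 5 H2B, 1 H3 and 5 H4 genes. No member reached it through 1 organ alone, but H1f5, H2bc3 and H4c2 reached it through frozen libraries alone. Of the tested members, 3 were under 3 counts in some library (H1f1, H2bc6 and H4c8). Members of the same core histone class have near-identical coding sequences, and the sources used here do not say how reads that match several genes were counted. Single core histone levels and the sums of their classes are therefore uncertain.

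**Figure D1:**
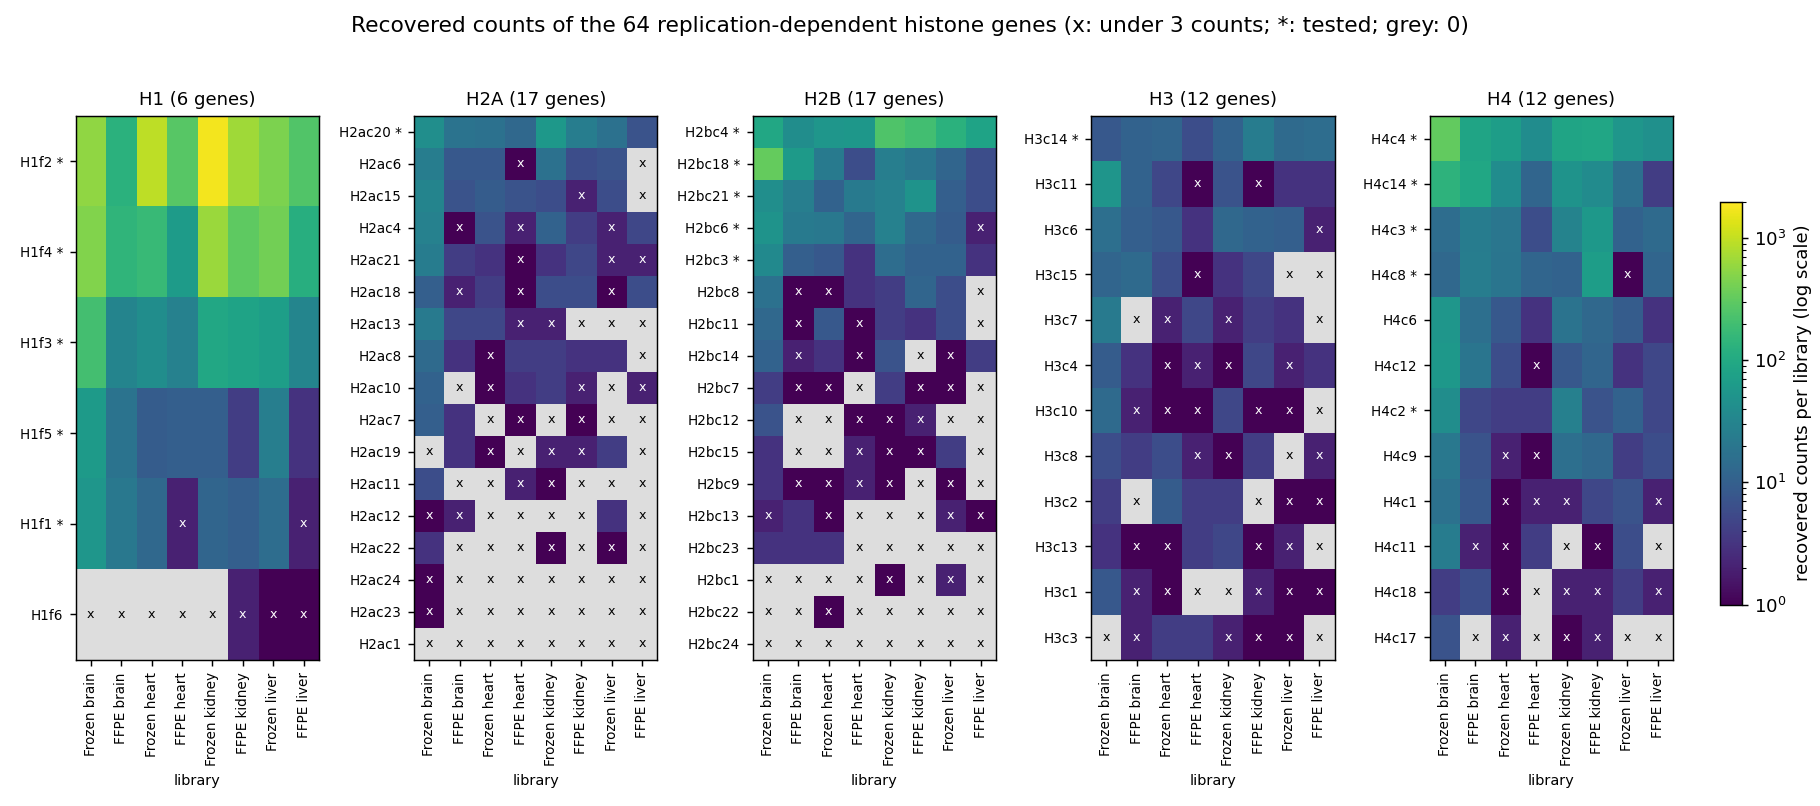
Recovered counts of all 64 members (rows, by histone class) in the 8 libraries (columns), on a log colour scale. Crosses mark values under 3 counts, grey cells are at 0, and stars mark the 17 tested members. H1f2 and H1f4 are the brightest rows, and most H2A and H3 rows hold many crosses.

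Linker histone genes held most of the recovered member counts. H1 genes held 61.4% of all member counts, H4 genes 15.3%, H2B genes 15.1%, H2A genes 4.62% and H3 genes 3.61%. These are shares of raw counts, not corrected for gene length. They also depend on how reads that match several genes were counted, which is not stated. The H1 share depends on no scaling between libraries. Among frozen libraries it was 44.2% for brain (95% Wilson interval 42.4 to 46.0%), 73.5% for heart (71.2 to 75.6%), 76.2% for kidney (74.7 to 77.6%) and 70.2% for liver (67.7 to 72.6%). In FFPE tissue it was 37.4% for brain (34.4 to 40.6%), 59.1% for heart (55.3 to 62.8%), 59.3% for kidney (57.0 to 61.5%) and 61.8% for liver (58.1 to 65.5%). Brain therefore had the lowest H1 share in either preservation, and the FFPE share lay below the frozen share in each organ with intervals apart. The intervals hold counting error at most. They treat each read as its own molecule, which could not be checked because the deposited values carry no molecular identifiers. With 1 library per group no test was made.

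Per library, the summed CPM of the 64 members was 89.7 in frozen and 42.9 in FFPE brain. The sums were 122 and 55.7 for heart, 151 and 93.1 for kidney, and 135 and 103 for liver. Brain had the lowest sum in each preservation on this scale. With counts outside the ribosomal genes as the library size, the sums were 384 and 193 CPM for brain, 403 and 169 for heart, 717 and 360 for kidney, and 339 and 215 for liver. On that scale kidney was highest in both preservations, while on the first scale it was highest among frozen libraries and FFPE liver stood above FFPE kidney. The lowest was then liver among frozen and heart among FFPE libraries, so the order of organs turned on the scaling. In bulk tissue, fewer cells that make a message and less of it per cell cannot be told apart.

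**Figure D2:**
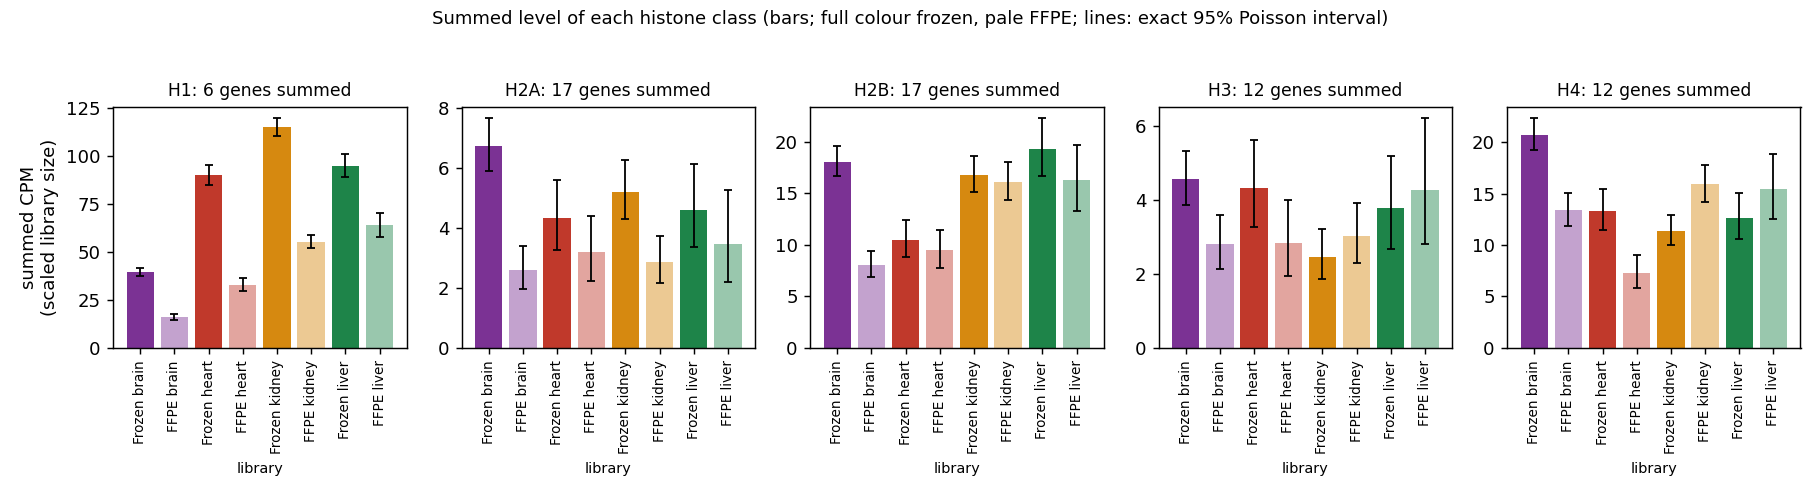
Summed level of each histone class in the 8 libraries, in CPM of the scaled library size, as bars from 0 (full colour frozen, pale FFPE). Lines are exact 95% Poisson intervals of the summed counts. The FFPE bar of H1 is the shorter one in each organ, while in kidney the FFPE bar of H4 is the taller one (15.9 against 11.4). It is also the taller one for H4 in liver (15.5 against 12.7) and for H3 in kidney (3.03 against 2.47) and liver (4.26 against 3.79).

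H1f2, also known as H1c, was the most abundant member per length. Its level was 51.2 CPM per kilobase at the median of the 8 libraries, against 18.6 for H1f4, 5.54 for H1f3, 1.02 for H1f1 and 0.96 for H1f5. Among core histones of similar short span, H4c4 stood highest at 12.4 and H4c14 at 5.58. H1f2 lies on chromosome 13 from 23738807 to 23739531. Its log2 level was 4.05 in frozen and 2.59 in FFPE brain, 6.17 and 4.59 for heart, 6.33 and 5.11 for kidney, and 5.46 and 5.31 for liver. Both brain libraries lay below all 6 others. H1f2 was lower in brain than the mean of the other 3 organs by log2 -2.17 ± 0.26 (SE; limma, Benjamini-Hochberg adjusted p = 1.59e-04), and lower in 2 of 2 preservations. This call was made under each of the 17 alternatives run, with the smallest difference, -0.95 (adjusted p = 0.0320), when total gene counts were the library size. H1f2 was higher in kidney by log2 1.03 ± 0.26 (adjusted p = 0.0178, higher in 2 of 2), a call that was lost without frozen kidney (adjusted p = 0.163), without FFPE kidney (0.122) and without the variance trend (0.0960). Kidney did not stand apart from all others, since frozen heart reached 6.17.

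H1f4, also known as H1e, lies on chromosome 13 from 23621777 to 23622558. Its log2 level was 3.77 in frozen and 2.77 in FFPE brain, 3.70 and 2.47 for heart, 4.88 and 3.96 for kidney, and 5.32 and 4.20 for liver. Within each preservation liver was highest, kidney next, then brain, with heart lowest, although frozen brain and frozen heart were nearly equal. All 4 organ comparisons were called by limma: brain was lower by -0.82 ± 0.16 (SE; adjusted p = 0.00224), heart lower by -1.06 ± 0.16 (0.00113), kidney higher by 0.71 ± 0.16 (0.0100) and liver higher by 1.17 ± 0.16 (adjusted p = 3.90e-04), each with the same sign in 2 of 2 preservations. The heart call was made under all 16 alternatives in which it could be computed. The brain and liver calls turned on the scaling. With total gene counts as the library size, brain stood 0.40 above and liver -0.03 below the others (adjusted p = 0.411 and 0.949), and with counts outside the ribosomal genes the values were -0.33 and 0.39 (adjusted p = 0.122 and 0.0719).

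These scalings moved all genes together. The median difference of all 14864 tested genes was 0.07 in brain and -0.18 in liver with the deposited values, and 1.29 and -1.38 with total counts. A scaling adds the same amount to every gene of a library, so it cannot change where a gene stands relative to that median, which for H1f4 was -0.89 in brain and 1.35 in liver. The kidney call of H1f4 was lost without frozen kidney (adjusted p = 0.0901), without FFPE kidney (0.193), without both heart libraries (0.101) and without the variance trend (0.0552).

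The other H1 genes were fainter. H1f3, also known as H1d, had a log2 level of 2.58 in frozen and 0.55 in FFPE brain, 1.68 and 1.29 for heart, 2.12 and 2.10 for kidney, and 2.81 and 2.36 for liver. Its organs overlapped, and no organ comparison was called. H1f5 had 143 counts in all, 63 of them in frozen brain and 26 in frozen liver, and H1f1 had 130, 55 of them in frozen brain. Neither was called in an organ. H1f6, the linker histone of the testis, had 4 counts over the 8 libraries and none in brain or heart, which is below what these depths resolve.

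H2A genes were nearly all under the level for testing, with 16 of 17 not tested and 60.3% of their values under 3 counts. H2ac20, which encodes a core H2A on chromosome 3 (96220413 to 96220880), was the member that passed. Its log2 level was 0.35 in frozen and -0.22 in FFPE brain, 0.43 and 0.21 for heart, 1.39 and 0.39 for kidney, and 0.80 and 0.24 for liver. These values lay close together, with frozen kidney highest, and no organ was called. Of the untested H2A genes, H2ac6 had the most counts (72) and H2ac15 came next (68). H2ac1, which is known from the testis, was at 0 in all 8 libraries, and a count of 0 allows up to 3 counts per library.

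H2B genes held the largest organ difference among the tested members. H2bc18 lies on chromosome 3 from 96269700 to 96270192. Its recovered counts were 331 in frozen and 62 in FFPE brain, 22 and 6 for heart, 26 and 20 for kidney, and 12 and 6 for liver. As log2 levels these were 3.28 and 1.54 in brain, 0.79 and -0.84 for heart, 0.28 and 0.07 for kidney, and 0.32 and 0.04 for liver. Both brain libraries lay above all 6 others. H2bc18 was higher in brain by log2 2.30 ± 0.48 (SE; limma adjusted p = 0.00351, higher in 2 of 2 preservations). Without frozen brain the difference was 1.78 and was not called (adjusted p = 0.0951). Frozen heart, the heart library with neuron and glia transcripts, had more H2bc18 than FFPE heart, and their part in that value was not tested. Without both heart libraries the brain difference was 2.23 (adjusted p = 0.00535).

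H2bc4 lies on chromosome 13 with a span of 8282 bases in the reference, long for a histone gene, so its levels may include spliced transcripts. Its log2 level was 1.48 in frozen and 0.95 in FFPE brain, 2.10 and 2.28 for heart, 3.50 and 3.37 for kidney, and 3.69 and 3.69 for liver. The organs followed 1 order in both preservations, and frozen and FFPE values of an organ differed by at most log2 0.53. H2bc4 was lower in brain by -1.89 ± 0.23 (SE; limma adjusted p = 1.79e-04) and higher in kidney by 1.07 ± 0.23 (0.00862) and in liver by 1.41 ± 0.23 (0.00117), each in 2 of 2 preservations. With total gene counts as the library size, the brain and liver calls were lost (-0.67 and 0.20, adjusted p = 0.223 and 0.718). The kidney call was lost without frozen kidney (adjusted p = 0.124) or FFPE kidney (0.128).

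The other tested H2B genes, H2bc21, H2bc6 and H2bc3, had 197, 156 and 98 counts and no organ call. H2bc21 and H2bc6 also have long spans (2667 and 37455 bases), and H2bc6 overlaps another gene in the reference, so its counts may include that gene's reads. H2bc8 had the most counts of the 12 untested H2B genes (44), and the testis member H2bc1 had 3.

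H3 genes were the faintest class by total, with 483 counts over 12 genes. H3c14 on chromosome 3 was the tested member. Its log2 level was -2.01 in frozen and -0.90 in FFPE brain, -0.05 and -0.84 for heart, -0.93 and 0.33 for kidney, and 0.53 and 1.29 for liver. Liver gave the highest value in each preservation and brain the lowest, but neither difference was called (liver 1.64 ± 0.61, adjusted p = 0.0532; brain -1.51 ± 0.61, adjusted p = 0.0616; SE, limma). H3c11, not tested, had 84 counts, of which 53 were in frozen brain.

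H4 genes had 5 tested members. H4c4 on chromosome 13, with the most counts, had a log2 level of 3.22 in frozen and 1.98 in FFPE brain, 2.42 and 1.80 for heart, 1.96 and 2.23 for kidney, and 2.47 and 2.84 for liver. It differed little between organs and was not called in any. H4c14 on chromosome 3 (96262934 to 96263317) had a log2 level of 2.02 in frozen and 2.11 in FFPE brain, 1.64 and 0.10 for heart, 1.21 and 1.02 for kidney, and 0.72 and -0.49 for liver. Its brain values lay above the other 6. H4c14 was higher in brain by 1.36 ± 0.44 (SE; limma adjusted p = 0.0267) and lower in liver by -1.24 ± 0.44 (0.0463), both in 2 of 2 preservations. The brain call was lost under 4 of 17 alternatives, and without FFPE brain the difference was 0.83 (adjusted p = 0.347) and without frozen kidney 1.25 (0.0770). The liver call was lost under 10 of 17, among them leaving out FFPE brain (adjusted p = 0.117), frozen heart (0.0905), either kidney (0.0693 and 0.122) or either liver library (0.0653 and 0.264).

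H4c3, H4c8 and H4c2 had 177, 162 and 105 counts and no organ call. Of the untested H4 genes, H4c6 had 124 counts, with at least 3 in every library, and H4c12 had 111, of which 57 were in frozen brain.

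**Figure D3:**
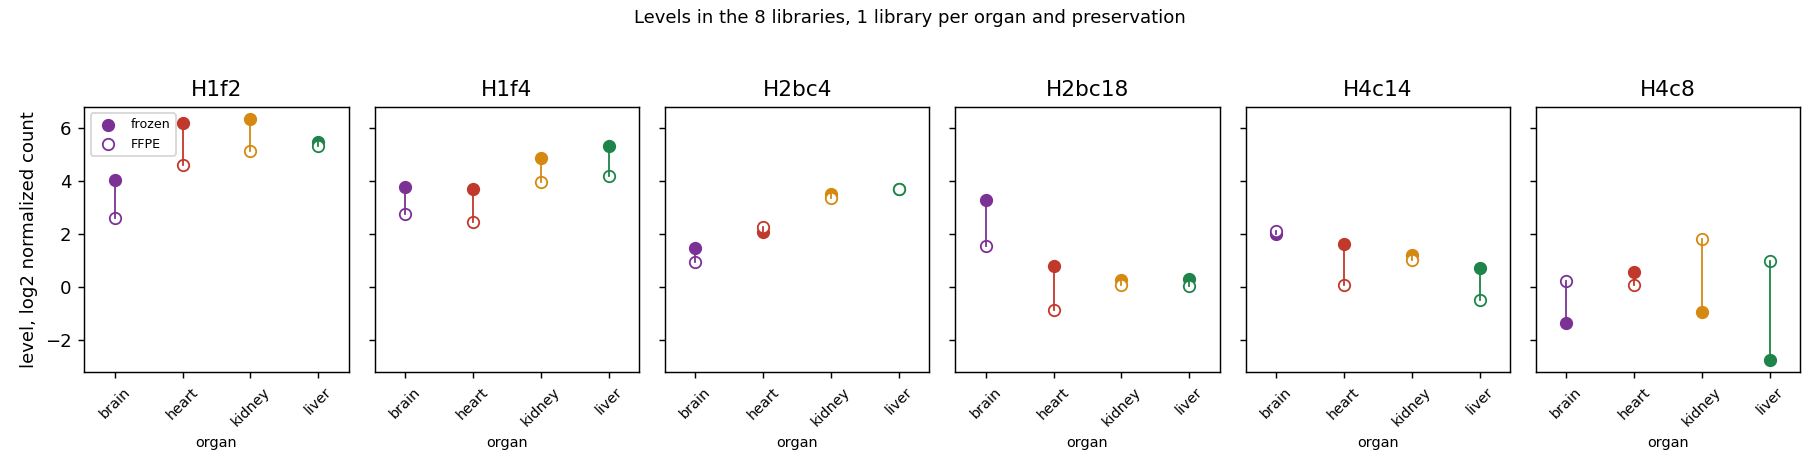
Log2 normalized count of 6 members by organ, with filled points for frozen and open points for FFPE libraries joined by a line. H1f2 and H2bc4 are lowest in brain, H2bc18 and H4c14 are highest in brain, the open H1f4 point lies below the filled one by a similar step in each organ, and H4c8 is higher in FFPE in each organ but heart.

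Over the 17 tested members, organ calls were about as frequent as, or less frequent than, among all tested genes. Brain gave 2 members higher (30.2% of all genes were called higher there) and 3 lower (26.4% of all genes). Heart gave 0 higher (15.9% of all genes; 0 members at an unadjusted p under 0.05, limma) and 1 lower (18.1%). Kidney gave 3 higher (16.1%) and 0 lower (13.5%; 1 member, H1f5, at an unadjusted p under 0.05). Liver gave 2 higher (20.1%) and 1 lower (27.2%). The median member differed by -0.34 for heart, -0.17 for brain, 0.23 for kidney and 0.42 for liver, beside -0.15, 0.07, 0.0020 and -0.18 over all genes. With total gene counts as the library size, the split over all genes moved to 55.4% higher and 10.5% lower for brain, 7.45% and 23.6% for heart, 19.0% and 6.82% for kidney, and 7.69% and 58.0% for liver. With counts outside the ribosomal genes it was 43.7% and 18.9% for brain, 29.1% and 8.39% for kidney, and 11.0% and 53.9% for liver.

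The 2 members called higher in brain lie near each other on chromosome 3, with 6382 bases between the end of H4c14 and the start of H2bc18. Chromosome 3 members gave 19.9% of histone counts in frozen brain (95% Wilson interval 18.6 to 21.4%) and 25.3% in FFPE brain (22.6 to 28.2%), against 5.74 to 10.3% in the other 6 libraries. Leaving out H2bc18 and H4c14, the share was 5.50% in frozen brain (4.68 to 6.44%) and 10.3% in FFPE brain (8.33 to 12.6%), and 3.56 to 7.78% elsewhere. H1 genes, all on chromosome 13, held 44.2% of member counts in frozen and 37.4% in FFPE brain, against 59.1 to 76.2% elsewhere. Fewer H1 counts raise the share of every other gene, so these shares do not show the rest of chromosome 3 raised in brain. The other tested members on chromosome 3, H2ac20, H2bc21 and H3c14, were not called in brain (-0.51, -0.12 and -1.51). H3c13, which lies between H4c14 and H2bc18, had 17 counts in all.

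FFPE tissue was compared with frozen tissue over the 4 organs. No member was called by limma, either higher (0.00673% of all genes were called higher, which is 1 gene, Xist) or lower (0% of all genes). At an unadjusted p under 0.05 (limma), 1 of 17 members was higher (H4c8) and 3 of 17 were lower (H1f2, H1f4 and H2bc18). Of all 14864 tested genes, 1304 were higher and 1465 lower. Of the 17 members, 13 were below 0, with a median of log2 -0.72, beside 55.5% below 0 and a median of -0.07 over all genes. The 5 tested H1 genes were all below 0 (-1.26 to -0.72), as were 4 of 5 H2B and 3 of 5 H4 genes. The lowest H1 value was that of H1f1, which had only 2 counts in FFPE heart and 2 in FFPE liver. These tallies and the median include H1f5, H2bc3 and H4c2. Those were tested through frozen libraries alone, so their values below 0 are no support. Other measures moved with preservation: 14378 to 17960 genes had a count in FFPE and 20568 to 22708 in frozen libraries. The 4 erythroid markers found summed to 224 CPM in FFPE and 18.6 in frozen heart, 24.8 and 5.94 for kidney, 39.8 and 13.0 for liver, and 3.40 and 12.6 for brain. Their part in the histone values was not tested. Over all genes, the share called in FFPE became 0.209% higher and 1.20% lower with total gene counts, and 0.0740% and 0.215% with counts outside the ribosomal genes.

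H1f4 was lower by a similar amount in every organ, from -1.23 in heart to -0.92 in kidney, with liver at -1.12 and brain at -1.0. The fitted difference was -1.07 ± 0.14 (SE; limma adjusted p = 0.0531, lower in 4 of 4 organs), just outside the threshold, and the adjusted p ranged from 0.0331 to 0.307 over the alternatives. It was called with counts outside the ribosomal genes as the library size (adjusted p = 0.0331) and with 2 counts added (0.0341). H1f2 differed by -1.59 for heart, -1.46 for brain, -1.21 for kidney and -0.14 for liver, with a fitted -1.10 ± 0.22 (adjusted p = 0.0879, lower in 4 of 4). Its difference was smallest in liver, and H1f2 was called by limma with total gene counts as the library size (-1.21, adjusted p = 0.0454). H4c8 had 13 counts in frozen and 25 in FFPE brain, 19 and 12 for heart, 11 and 69 for kidney, and 1 and 12 for liver. Its difference was -0.48 for heart, 1.59 for brain, 2.76 for kidney and 3.72 for liver, the last against 1 count, and the fitted 1.90 ± 0.69 was not called (adjusted p = 0.209). H2bc4 differed least, by -0.12 ± 0.20 (adjusted p = 0.769).

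**Figure D4:**
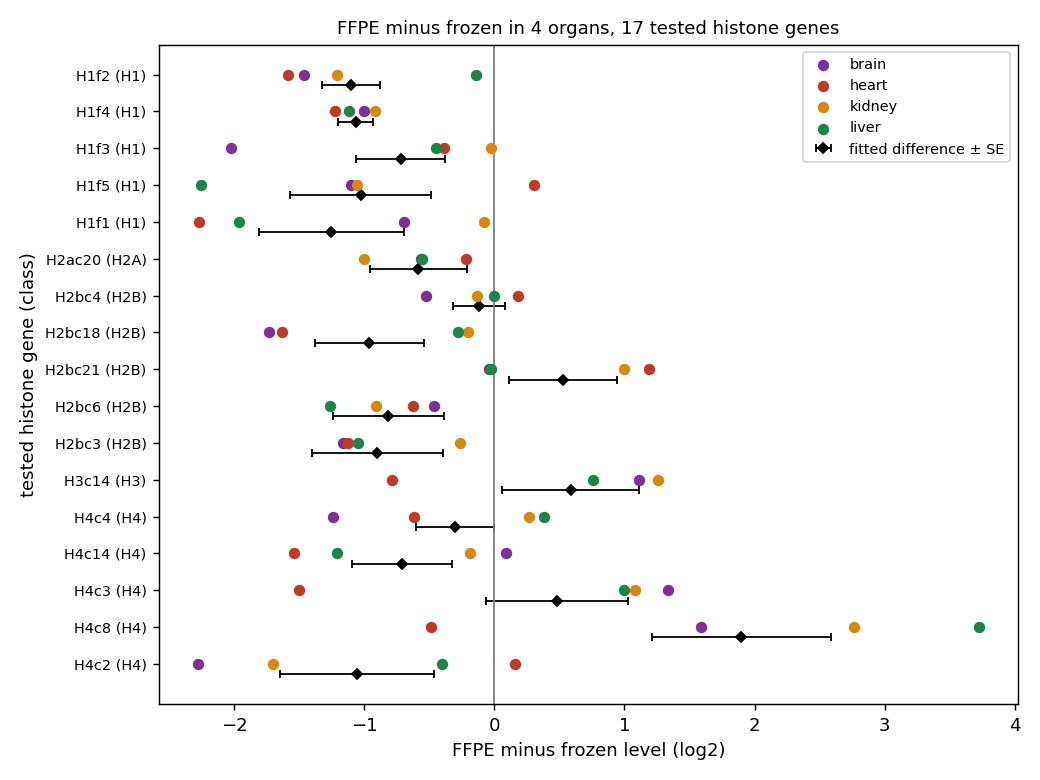
FFPE minus frozen log2 level of the 17 tested members, with a coloured point for each organ and a black diamond for the fitted difference with its standard error. The 4 H1f4 points lie between -1.23 and -0.92, all 5 H1 diamonds lie left of 0, and the H4c8 points spread from -0.48 to 3.72. H1f5, H2bc3 and H4c2 were tested through frozen libraries alone.

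Within single organs there is 1 library against 1, so the ratios below carry exact 95% intervals of the counts, which cover counting error only, and no test. The H1 sum was lower in FFPE for brain by log2 -1.30 (-1.48 to -1.13), for heart by -1.45 (-1.62 to -1.28), for kidney by -1.06 (-1.16 to -0.96) and for liver by -0.57 (-0.74 to -0.40). The H4 sum was lower in brain by -0.63 (-0.83 to -0.43) and in heart by -0.87 (-1.26 to -0.49). In kidney the H4 sum was higher in FFPE by 0.48 (0.24 to 0.73), and in liver its 0.29 had an interval that spans 0 (-0.11 to 0.68). Leaving out H1f2 and H1f4, the sum over the other members was -0.98 in brain (-1.11 to -0.85) and -0.51 in heart (-0.72 to -0.30), while kidney (0.06, -0.08 to 0.20) and liver (-0.18, -0.39 to 0.03) had intervals that span 0. In CPM, the H2A sum was 6.72 in frozen and 2.61 in FFPE brain, and 4.32 and 3.18 for heart. It was 5.21 and 2.87 for kidney, and 4.58 and 3.47 for liver. The H2B sum was 18.1 and 8.05 for brain, 10.5 and 9.45 for heart, 16.8 and 16.1 for kidney, and 19.3 and 16.3 for liver. The H3 sum was 4.56 and 2.79 for brain, 4.32 and 2.84 for heart, 2.47 and 3.03 for kidney, and 3.79 and 4.26 for liver. By single member, the interval lay below 0 for 21 of 64 members in brain (15.8% of all 27179 genes), 7 for heart (13.0%), 5 for kidney (11.9%) and 3 for liver (8.66%). It lay above 0 for 2 (11.7% of all genes), 1 (12.1%), 5 (12.4%) and 2 (10.7%). The member count was above the background for lower values in brain and under it in the other 7 cases. An interval narrows as counts grow, so such shares depend on how abundant the genes are.

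Other genes of histone biology were counted from lists of known function. Of 13 genes listed as replication-independent variants, which can be made outside S phase and can replace canonical histones, 11 were tested. In brain 3 of them were called higher (27.3%, beside 30.2% of all genes) and 1 lower (9.09%, beside 26.4%), so the shares were at or under the background. Macroh2a2 and H2ax were higher in brain by log2 1.72 ± 0.48 and 1.24 ± 0.39 (SE; limma adjusted p = 0.0143 and 0.0253). H1f10, a linker variant, had 111 and 35 counts in frozen and FFPE brain, 9 and 3 for heart, 3 and 2 for kidney and 0 in both liver libraries. It was tested through its brain libraries alone, so its call there is no support. Cenpa, the centromeric H3 variant, was likewise tested through heart alone (20 and 45 counts) and had 7 and 0 counts in brain. In FFPE against frozen tissue 0 of 11 were called by limma (2 lower and 0 higher at an unadjusted p under 0.05), with 9 of 11 below 0 and a median of -0.38.

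Of 19 genes for histone gene transcription, message processing and decay, 17 were tested, and in brain 5 were called higher (29.4%, beside 30.2% of all genes) and 1 lower (5.88%, beside 26.4%). Lsm11, a U7 particle protein, differed there by 2.19 ± 0.36 (SE; limma adjusted p = 8.84e-04). Lsm10, the other Lsm protein particular to that particle, differed by -0.83 ± 0.41 and was not called (adjusted p = 0.116). Npat, the S phase activator of histone transcription, was higher in brain by 1.33 ± 0.27 (adjusted p = 0.00267). Lsm11 and Npat were called lower in liver (-1.30 and -1.06, adjusted p = 0.0159 and 0.0107). Of 28 genes of S phase and mitosis, 18 were tested, and in brain 4 were called lower (22.2%, beside 26.4% of all genes) and 1 higher (5.56%, beside 30.2%). Mki67, a proliferation marker, was lower by -1.99 (limma adjusted p = 0.00284). Tk1, thymidine kinase, was called lower with 4 and 1 counts in brain, so the size of its difference is poorly set. The gene called higher, Ccne1 (cyclin E1), was above log2 0 in the brain libraries alone, so its call there is no support. Of 15 histone chaperones 13 were tested, with 3 called higher (23.1%, beside 30.2% of all genes) and 0 lower in brain (limma; 0 lower at an unadjusted p under 0.05), Hira among them (0.76, adjusted p = 0.00728). In FFPE against frozen tissue none of the 3 lists had a call by limma. At an unadjusted p under 0.05 there were 0 higher and 2 lower, 0 and 1, and 1 and 0, in the order given. Their medians were -0.01, -0.33 and -0.08, beside -0.72 for the tested histone members. Some of those members were tested through frozen libraries alone.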

How the data were processed

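The submitters' processing notes name HISAT2 and featureCounts, limma, and the mm10 build; settings, and how multi-mapping reads were counted, are not stated. The authors deposited log2 normalized counts for 27179 genes. From the values, each is log2 CPM of the count plus 0.5, over a library size that the authors scaled, and 100% of values gave whole counts within 0.001 (relative to 10000 for larger counts). The columns were mapped to m6A groups by organ and preservation; 8 more columns, which match no listed sample, were left out. Whether a column holds 1 or both runs is not given.

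The limma fit was additive (organ and preservation, 8 libraries, 3 residual degrees of freedom, eBayes with a trend) on 14864 genes above log2 0 in at least 2 libraries, with calls at Benjamini-Hochberg adjusted p under 0.05. These p-values measure how alike organs or preservations behaved, not the spread between animals. All 64 members matched the reference. Members tested could all be named, with full values for up to 3 per class with the most counts and any called, then the untested members with the most counts, testis members and tested genes of the lists. The members and lists were chosen with earlier results of these data known. On simulated data with 14864 genes, the FFPE comparison recovered 86% of genes changed by log2 1 and 100% of those changed by log2 2, with 12 false calls; the liver comparison recovered 76% and 100%, with 17. The changed genes were drawn from those with a mean level of at least log2 3, which only H1f2 and H1f4 of the tested members reached. These rates do not apply to the fainter members. The simulated noise was normal with the fitted variances, and genes without a planted change had no difference in the comparison tested. Real libraries need not behave so, and the rates do not give the power for H1f2 or H1f4. Alternatives covered scaling, filter, added count, variance trend and leaving out each library. Leaving out both heart libraries was chosen after seeing the data. Software was Python 3.11.15 (matplotlib 3.10.9, pandas 2.3.3, scipy 1.17.1, numpy 2.4.6) and R 4.3.3 (limma 3.58.1).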

Additional observations from a re-analysis of the deposited data

Results flagged for a closer look

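In 2 members, 1 organ lay far from the other 3 in its difference between FFPE and frozen tissue by Dixon's criterion, which chance meets in about 1 in 20 groups, and 17 members were examined. H2bc3 differed least in kidney, at log2 -0.26, with the other organs between -1.16 and -1.05. It had 37 counts in frozen and 10 in FFPE brain, 8 and 3 for heart, 15 and 11 for kidney, and 11 and 3 for liver. The exact counting interval spanned 0 in each organ but brain, and that of kidney (-1.55 to 0.94) held the values of the other organs. H4c3 was lower in FFPE heart by -1.50, while its other organs were higher in FFPE. The ratio of its counts, scaled by library size, was log2 1.35 in brain and 1.09 in kidney, and -1.58 in heart, with exact counting intervals apart from 0 in all 3. With 1 library per organ and preservation, the difference between organs was not tested.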

How the results depend on the processing

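No paired analysis was possible because the columns carry no replicate or animal number to pair by; organ is already a block in the fit reported. Of 168 counts of calls recomputed under alternatives, 128 equalled the count reported or stayed within 1.5 times of it. These include counts of 0 that stayed at 0 (heart higher, kidney lower, FFPE higher and FFPE lower), so the tally says less about the other calls. Brain higher (2) was 1 with quantile normalization, with centring on medians and with the stricter filter, and 6 with total gene counts. Brain lower (3) was 1 with total counts, 8 without a filter and 5 without both heart libraries. Heart higher (0) was 1 with centring, and heart lower (1) was 2 with counts outside ribosomal genes. Kidney higher (3) was 1 without the trend, and kidney lower (0) was 1 with 2 counts added and without both heart libraries. Liver higher (2) was 4 with centring, 0 with total counts, 1 with counts outside ribosomal genes, 6 without a filter and 4 without both heart libraries. Liver lower (1) was 0 with quantile normalization, centring and 2 counts added, 5 with total counts and 4 with counts outside ribosomal genes. FFPE lower (0) was 1 with total counts, with counts outside ribosomal genes and with 2 counts added.

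Leaving out 1 library gave 1 to 2 brain higher, 3 to 5 brain lower, 0 to 1 heart higher, 0 to 3 kidney higher, 0 to 1 kidney lower and 0 to 1 liver lower. The median over tested members turned positive in brain with total counts (1.05) and counts outside ribosomal genes (0.32), and negative in liver (-0.78 and -0.36); these scalings move the median of all genes the same way (1.29 and 0.56; -1.38 and -0.95). Leaving out 1 library gave a median of -0.50 (without frozen brain) to 0.26 in brain, positive without FFPE brain (0.26) and FFPE heart (0.022), and of -0.014 (without FFPE kidney) to 0.51 in kidney; the cause was not tested. Depth limits 47 members, which were not tested.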
